A study of Mus musculus with 64 samples.

Results

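Corticosterone (CORT), the main glucocorticoid hormone of the mouse, reaches hepatocytes from the blood, binds the glucocorticoid receptor (GR) and moves with it to the nucleus, where the receptor raises or lowers the transcription of its targets. In the liver this hormone is known for promoting the release of glucose, the breakdown of amino acids and the handling of fat, and for restraining inflammation. In Angelman syndrome (AS) mice given CORT for 5 days, most tested classical GR targets and genes of glycolysis were higher in the liver. Some genes of amino acid catabolism and of drug metabolism were higher as well. Interferon response genes, markers of macrophages and of antigen-presenting cells, several cholesterol synthesis genes and most tested major urinary protein genes were lower.

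The data came from 10 livers of AS mice, 5 that carried a CORT pellet and 5 that carried a vehicle pellet, out of 64 RNA-seq samples of the series. The 10 livers were chosen by genotype, treatment and tissue in the labels. AS mice were adult males of 10 to 18 weeks, F1 hybrids of 129sv mothers and C57BL/6J fathers, that inherited from the mother a Ube3a allele lacking exon 5 (Ube3a m-/p+). Ube3a encodes a ubiquitin ligase, and since the paternal allele is silenced in neurons and not in other tissues, AS livers still had an intact copy in use. The CORT pellet held 20 mg of corticosterone and 80 mg of cholesterol, and the vehicle pellet 100 mg of cholesterol, so that both groups received cholesterol. The livers of 10 wild-type (WT) littermates, 5 with each pellet, were fitted together with the AS livers and serve below for comparison. How much CORT the mice still made themselves was not measured in these data. Nothing in the labels says that libraries of a group came from other than separate mice.

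Between 24567565 and 24720273 reads per AS liver were deposited, of which 19563921 to 20868924 were counted on genes. Levels of genes are given in CPM (counts divided by the normalized library size). A count of 3 in a library, used as the floor, equals 0.144 to 0.153 CPM by the library size before scaling. It covers counting error only. Hepatocyte markers were abundant in all 10 livers, with a sum over the marker list of 111300 to 146100 CPM in AS vehicle livers and 133600 to 161200 CPM in AS CORT livers. Reads that did not align made up 4.52 to 6.68% in AS vehicle livers and 1.49 to 3.23% in AS CORT livers, without overlap, and the part of this difference in the results below was not tested. In a principal component analysis of the 20 livers, PC1 held 55.1% of the variance, and the AS CORT livers scored 31.2 units higher on it than the AS vehicle livers (two-sided exact permutation test, p = 0.0079, the smallest that 5 against 5 livers allow, adjusted p = 0.0238 over 3 components). PC2 held 24.3% of the variance and did not follow the pellets in AS livers (adjusted p = 0.770, exact permutation test). It set apart AS vehicle liver L2, AS CORT livers L7 and L8 and 3 WT livers, and its leading genes belong to the circadian clock, so that counts are also given without these 6 livers.

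**Figure D1:**
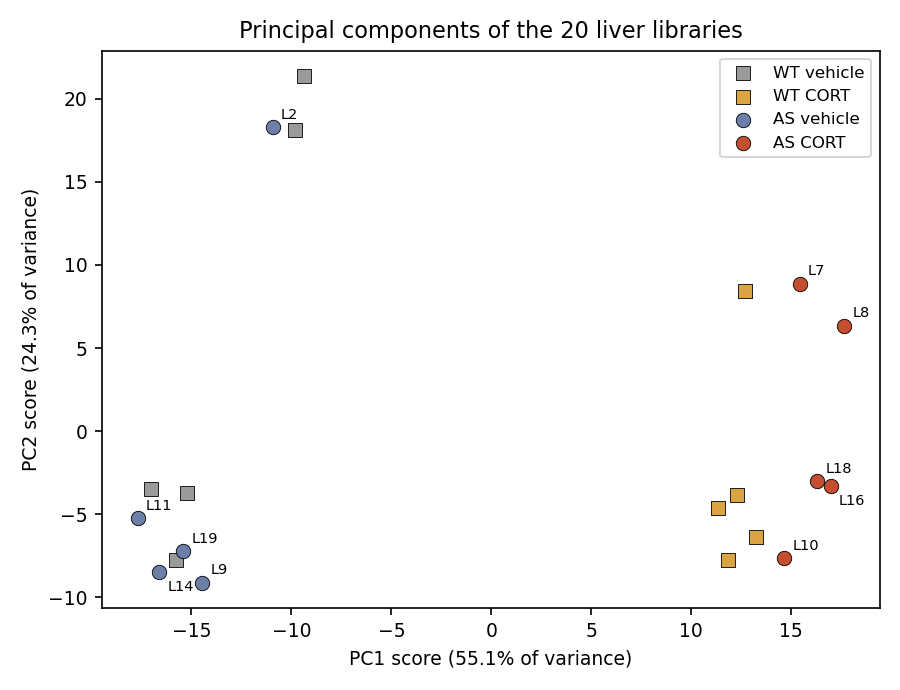
Scores of the 20 liver libraries on PC1 (horizontal axis) and PC2 (vertical axis), one point per mouse, with circles for AS and squares for WT and colours for the pellets. The AS CORT livers lie at 14.6 to 17.7 on PC1 and the AS vehicle livers at -17.7 to -10.9, and L2, L7 and L8 lie above the other AS livers on PC2.

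The targeted gene was examined to check the labels. Ube3a, on chromosome 7 (59228750 to 59311536, GRCm38), was at 31.7, 28.5, 38.6, 30.6 and 35.6 CPM in AS vehicle livers L2, L9, L11, L14 and L19. In AS CORT livers L7, L8, L10, L16 and L18 it was at 34.0, 34.6, 37.5, 32.4 and 35.9 CPM. All 10 values lay below the lowest WT liver (41.8 CPM). The log2 difference from WT was -0.55 (SE 0.09, adjusted p = 0.0191) with vehicle and -0.48 (SE 0.09, adjusted p = 0.0133) with CORT. CORT itself moved Ube3a in AS liver by 0.08 on the log2 scale (SE 0.09, adjusted p = 0.530), with overlapping groups. The call against WT was lost with vehicle without L9, L14 or WT livers L1 or L4 (adjusted p of 0.0549 to 0.113), and with CORT without L8, L16 or WT liver L12 (adjusted p of 0.0521 to 0.0548).

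CORT altered 3380 of 12273 genes tested in AS liver (edgeR's quasi-likelihood test, Benjamini-Hochberg adjusted p under 0.05), which is 27.5% of them. Of these, 1544 rose (12.6% of genes tested) and 1836 fell (15%), and 234 rose and 570 fell by more than 1 on the log2 scale. For 922 genes (7.51%) all 5 CORT livers lay above all 5 vehicle livers, and for 1118 genes (9.11%) all lay below. Without the 6 livers that stand apart on PC2, 1441 genes rose and 1676 fell, and 2576 of the 3380 altered genes kept their call. The shares of 27.5%, 12.6% and 15% are the background for the gene groups below, whose median log2 change is to be read against -0.00 for all genes tested.

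Among classical GR targets the changes that passed the test were all upward. Of 18 genes that respond to glucocorticoids in many tissues, 12 rose, none fell and the median log2 change was 1.79. Without the livers that stand apart 14 rose. As single AS livers were left out, 12 to 14 rose and 0 to 1 fell. Fkbp5, a chaperone that lowers the affinity of GR for its hormone and so closes a feedback loop, was at 21.2, 13.6, 17.5, 13.4 and 17.6 CPM in AS vehicle livers (L2, L9, L11, L14 and L19, the order used throughout). In AS CORT livers (L7, L8, L10, L16 and L18) it was at 321, 334, 183, 306 and 327 CPM. The groups were far apart, with L10 the lowest of the treated livers, and the log2 change was 4.14 (SE 0.32, adjusted p = 1.6e-08). Tsc22d3, which encodes the anti-inflammatory protein GILZ, rose from 50.1 ± 6.80 to 168 ± 22.2 CPM (mean ± SD, n = 5 each, adjusted p = 2.1e-09). Zbtb16, a zinc finger repressor, rose by 2.43 on the log2 scale (SE 0.34), Gadd45b, a stress-induced regulator of growth arrest, by 3.87 (SE 0.35), and Angptl4, a secreted inhibitor of lipoprotein lipase, by 1.67 (SE 0.47). Lcn2, an iron-siderophore carrier also counted among the acute phase proteins, rose 7.92-fold.

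Some well-known targets did not pass the test. Sgk1, a kinase of ion transport, was at 12.4, 21.7, 16.4, 21.8 and 16.9 CPM with vehicle and at 12.3, 16.3, 29.7, 19.2 and 15.5 CPM with CORT. These ranges overlapped, and the log2 difference was 0.06 (SE 0.23, adjusted p = 0.870). Per1, which is both a clock component and a GR target, was at 51.8 CPM in L2 and at 0.59 to 1.79 CPM in the other 4 AS vehicle livers, against 25.8 to 66.3 CPM with CORT. The log2 difference was 1.84 (SE 0.97, adjusted p = 0.168) over all livers and 4.75 (adjusted p = 2.3e-06) without the 6 livers that stand apart, and it passed the threshold without L2 alone (adjusted p = 0.000195). Dusp1, Klf9, Pdk4 and Igfbp1 also missed the threshold, with log2 differences of 0.60, 0.44, -1.20 and -0.83.

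The metallothioneins Mt1 and Mt2, small proteins that bind zinc and copper, are neighbours on chromosome 8. Mt2 was at 1.92, 0.954, 1.77, 0.786 and 2.96 CPM in AS vehicle livers and at 47.7, 52.0, 142, 128 and 141 CPM in AS CORT livers, a log2 change of 5.92 (SE 0.46, adjusted p = 1.6e-08). Mt1 was at 16.4, 4.52, 9.004, 5.20 and 12.5 CPM and at 95.2, 89.9, 179, 132 and 184 CPM, a log2 change of 3.84 (SE 0.40, adjusted p = 6.8e-07). For both genes L7 and L8 were the lowest treated livers, and all treated livers lay above all vehicle livers. Among the zinc transporters, Slc39a14, an importer of the plasma membrane, rose by 0.83, Slc39a5 by 1.47, Slc39a6 by 0.60, Slc30a1, an exporter, by 0.42 and Slc30a9 by 0.33, while Slc39a4 fell by 0.66 on the log2 scale. Thus 7 of 15 genes of this list rose and 1 fell, with a median log2 change of 0.36.

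The 250 bases before the transcription start of 4 genes are shown, as RefSeq places the starts on GRCm38.p6, for the metallothionein pair that rose together and for the measured genes whose promoter holds a full palindromic glucocorticoid response element (AGAACA and TGTTCT, 3 bases apart). Capitals mark that element in Sgk1 and Acnat2. In Mt1 and Mt2 they mark TGCACAC on either strand, a form of the metal response element that was searched after the sequences had been seen.
Mt2, chr8:94172368-94172617, plus strand: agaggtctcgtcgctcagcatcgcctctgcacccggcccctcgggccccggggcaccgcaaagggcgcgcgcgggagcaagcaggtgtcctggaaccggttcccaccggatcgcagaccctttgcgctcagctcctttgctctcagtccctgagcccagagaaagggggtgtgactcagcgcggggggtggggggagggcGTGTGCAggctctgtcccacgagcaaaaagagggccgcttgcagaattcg
Mt1, chr8:94178839-94179088, plus strand: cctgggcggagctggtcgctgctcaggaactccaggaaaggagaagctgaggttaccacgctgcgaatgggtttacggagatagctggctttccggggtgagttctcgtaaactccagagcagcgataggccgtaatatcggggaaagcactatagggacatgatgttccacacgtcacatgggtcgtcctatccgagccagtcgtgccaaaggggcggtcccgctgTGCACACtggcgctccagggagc
Sgk1, chr10:21993640-21993889, plus strand: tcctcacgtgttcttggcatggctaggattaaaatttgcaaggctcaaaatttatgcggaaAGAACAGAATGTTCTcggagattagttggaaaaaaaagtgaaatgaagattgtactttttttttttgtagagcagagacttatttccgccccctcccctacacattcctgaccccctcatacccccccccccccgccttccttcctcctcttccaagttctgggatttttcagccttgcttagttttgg
Acnat2, chr4:49408152-49408401, minus strand: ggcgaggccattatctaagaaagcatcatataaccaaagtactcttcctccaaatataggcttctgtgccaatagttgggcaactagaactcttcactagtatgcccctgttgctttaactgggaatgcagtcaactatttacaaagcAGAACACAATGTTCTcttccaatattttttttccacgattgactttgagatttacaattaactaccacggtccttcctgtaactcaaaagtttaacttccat

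The full element was found before the start of 3 of 27025 gene symbols with a promoter sequence (0.0111%), of which Sgk1 and Acnat2 were measured here. Acnat2, a liver enzyme that conjugates fatty acids to amino acids, was named for its promoter and not by the rule for named genes. It was at 4.57, 20.03, 8.02, 4.62 and 11.3 CPM with vehicle and at 117, 159, 190, 239 and 267 CPM with CORT, a log2 change of 4.32 (SE 0.41, adjusted p = 2.6e-07). Sgk1, with the same element before 1 of its 6 listed starts and farther from it (189 against 102 bases), did not pass the test. TGTTCT alone, on either strand, stood in 15.5% of the promoters of genes that rose, 15% of those that fell and 13.2% of those of all genes tested that had a sequence. TGCACAC stood in 3.78%, 5.23% and 4.03% of them, and TGCGCAC, absent from both metallothionein windows, in 6.90%, 4.58% and 6.61%.

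**Figure D2:**
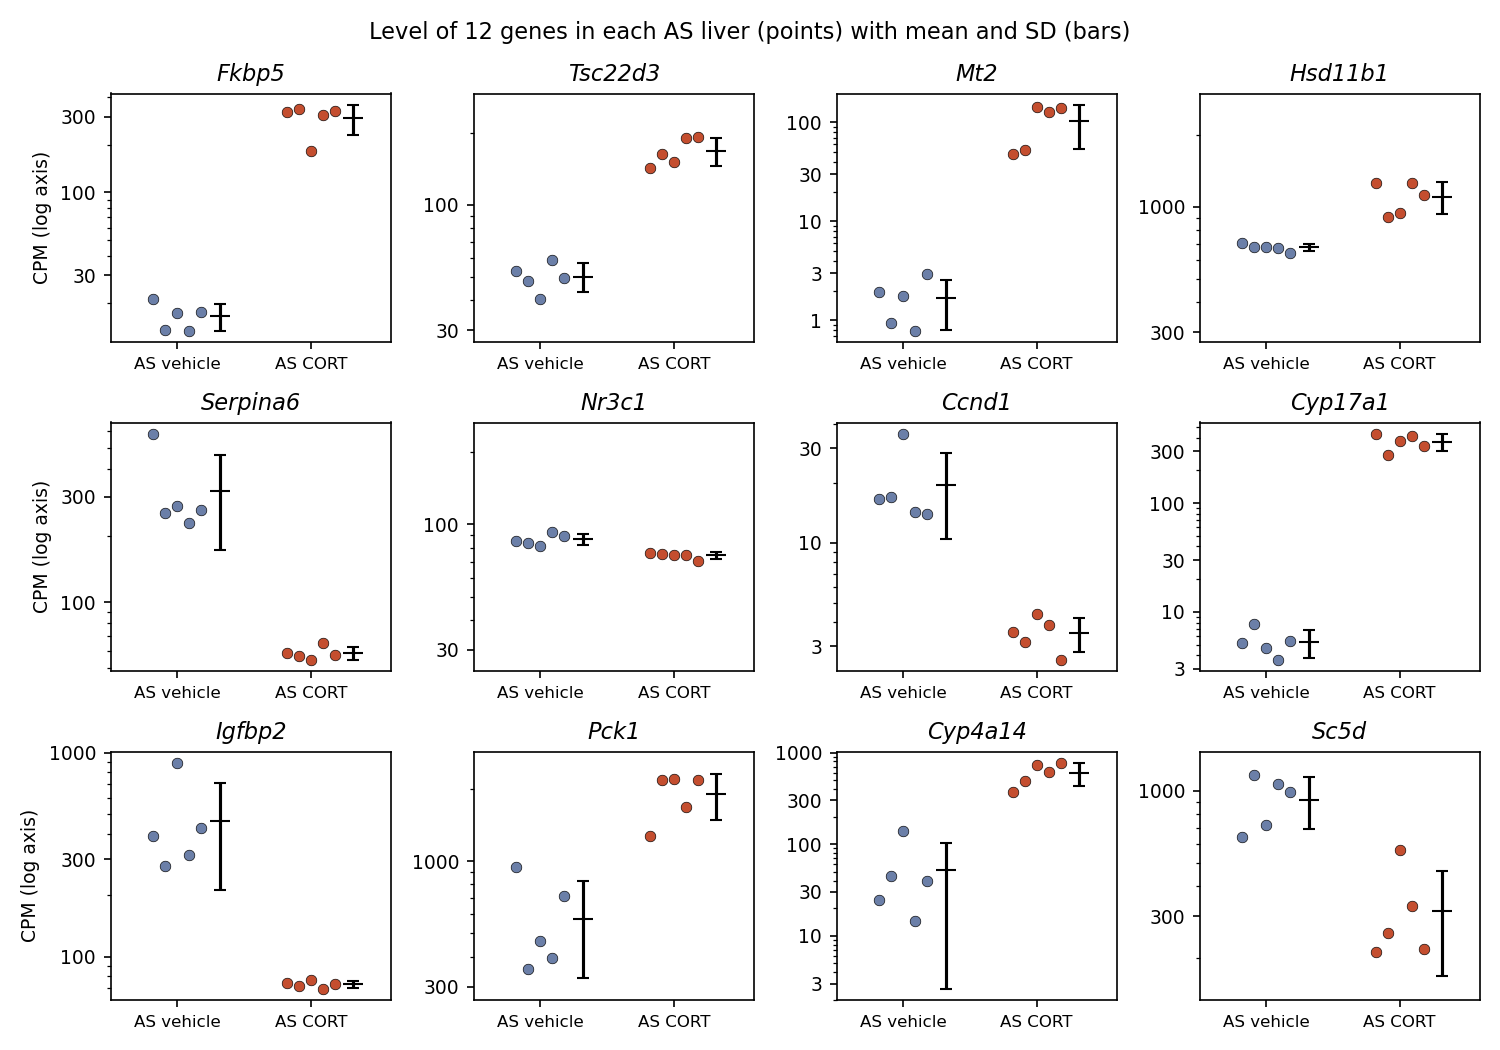
Level in CPM (log axis) of 12 genes in each AS liver, vehicle in blue and CORT in red, with the mean and SD of 5 livers as a black bar beside the points. The groups do not overlap for any of the 12 genes, and they are farthest apart for Cyp17a1, from 5.34 to 365 CPM on average.

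Genes that carry, bind and convert the hormone were examined next. Serpina6, which encodes corticosteroid-binding globulin, the plasma carrier of CORT, was at 580, 255, 272, 228 and 261 CPM with vehicle and at 59.0, 57.0, 54.6, 65.3 and 57.6 CPM with CORT. Its lowest vehicle liver lay far above its highest treated liver, and the log2 change was -2.44 (SE 0.28, adjusted p = 2.4e-06). Hsd11b1, the enzyme that regenerates active CORT from its inert keto form inside hepatocytes, rose from 677 ± 25.0 to 1097 ± 168 CPM (log2 change 0.70, SE 0.08, adjusted p = 2.6e-06). Nr3c1, the gene of GR, was at 81.6 to 92.7 CPM with vehicle and at 70.2 to 76.3 CPM with CORT, which is a small but non-overlapping fall of 0.22 on the log2 scale (SE 0.04, adjusted p = 0.00077). Akr1d1 and Srd5a1, reductases that inactivate steroids, rose by 0.53 and 0.35, Srd5a2 fell by 0.76, and Abcb1a, a drug and steroid exporter, rose by 0.89. The mineralocorticoid receptor Nr3c2 and the GR chaperones Hsp90aa1, Hsp90ab1, Ptges3 and Fkbp4 had log2 differences between -0.19 and 0.11 and did not pass. In all, 4 of the 14 genes rose, or 2 without L14 or L19, and 3 fell. The call of Srd5a1 was lost without L2, L14, L18 or L19 (adjusted p of 0.0524 to 0.0663), and that of Srd5a2 without the livers that stand apart (adjusted p = 0.0739).

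In glucose metabolism, genes of both breakdown and synthesis rose and none fell. Of 18 genes of glycolysis and glucose uptake, 11 rose and none fell, with a median log2 change of 0.40. Pfkfb1, which sets the level of an allosteric activator of glycolysis, was at 19.4, 32.7, 14.9, 27.3 and 24.2 CPM with vehicle and at 47.4, 46.2, 66.9, 63.7 and 61.6 CPM with CORT, a log2 change of 1.27 (SE 0.19, adjusted p = 5.6e-05) without overlap. Khk, the fructokinase, rose from 546 ± 93.4 to 1126 ± 188 CPM (adjusted p = 7.5e-06). Pklr, liver pyruvate kinase, rose by 1.35 (SE 0.32, adjusted p = 0.0035), with L18 (579 CPM) within the range of the vehicle livers. The glucose transporter Slc2a2 rose by 0.58.

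Of 19 tested genes of gluconeogenesis and glycogen, 7 rose and none fell (median 0.25), and 10 rose without the livers that stand apart. Pck1, which makes phosphoenolpyruvate from oxaloacetate, was at 946, 354, 466, 396 and 719 CPM with vehicle and at 1275, 2182, 2192, 1683 and 2177 CPM with CORT (log2 change 1.72, SE 0.40, adjusted p = 0.0032). Pcx, pyruvate carboxylase, rose by 0.74, Foxo1, a transcription factor of fasting, by 0.79, and Slc37a4, which carries phosphorylated glucose into the endoplasmic reticulum, by 1.31. G6pc, whose enzyme releases free glucose, was at 276 to 839 CPM with vehicle and at 389 to 617 CPM with CORT, and its log2 difference of -0.07 (SE 0.23, adjusted p = 0.862) did not pass. Among genes of glycogen, Pygl, Ppp1r3b and Gbe1 rose by 0.31, 1.05 and 0.39, and Gys2 did not pass (0.11).

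Genes of fat metabolism moved in both directions. Lpin1, a phosphatidate phosphatase and coactivator, was at 335, 93.2, 44.6, 76.7 and 88.3 CPM with vehicle and at 1033, 814, 530, 746 and 705 CPM with CORT (log2 change 2.59, SE 0.56, adjusted p = 0.0017). Lpin2, Dgat2 and Tkfc also rose, by 0.75, 0.65 and 1.09, while the desaturases Fads1 and Fads2 fell by 0.67 and 0.65 and Acss2, an acetyl-CoA synthetase, by 1.24. The call of Acss2 was lost under 9 of 19 alternatives, among them those without L7, L8, L9, L16, L18 or L19 (adjusted p of 0.0569 to 0.0786), and 5 genes of the list fell without L10. The regulator Srebf1 (0.32) and the enzymes Fasn (-0.06), Scd1 (-0.19), Acly (-0.81) and Acaca (0.44) did not pass, so that 4 of 23 genes of lipogenesis rose and 3 fell (30.4% altered, near the background of 27.5%). Of 20 tested genes of lipid droplets, lipases and uptake, 4 rose and 5 fell. Plin5, a droplet protein of oxidative tissues, rose from 33.2 ± 7.01 to 96.4 ± 12.8 CPM (adjusted p = 5.7e-07), Plin4 rose by 2.05 and Mttp, which loads triglyceride onto lipoproteins, by 0.63. Plin2, the common coat protein of hepatocyte droplets, fell by 0.70, Fabp1, the liver fatty acid-binding protein, by 0.69, Fitm1 by 1.57 and Lpl, lipoprotein lipase, by 1.80.

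Of 26 genes of fatty acid oxidation and ketogenesis, 7 rose and 4 fell, with a median of 0.10. Cyp4a14, an omega-hydroxylase of fatty acids, was at 24.3, 44.3, 139, 14.6 and 39.7 CPM with vehicle and at 374, 493, 726, 620 and 772 CPM with CORT, without overlap (log2 change 3.51, SE 0.56, adjusted p = 9.2e-05). The related Cyp4a10 rose by 1.42 and the thioesterase Acot1 by 1.55. Acadm, of mitochondrial oxidation, rose by 0.42, whereas the ketone enzyme Bdh1 fell from 254 ± 33.0 to 107 ± 7.90 CPM (adjusted p = 1.6e-08) and the peroxisomal enzyme Acaa1b fell by 0.90. Cpt1a, the entry step of mitochondrial oxidation, had a log2 difference of -0.11 (adjusted p = 0.775).

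Cholesterol synthesis and uptake was the metabolic list with the lowest median, at -0.78. Of its 25 genes 12 fell and 1 rose. Sc5d, a desaturase late in the pathway, was at 642, 1160, 716, 1071 and 986 CPM with vehicle and at 212, 254, 568, 329 and 218 CPM with CORT (log2 change -1.53, SE 0.30, adjusted p = 0.00073). Tm7sf2, a sterol reductase, fell from 217 ± 27.5 to 123 ± 31.5 CPM (adjusted p = 0.00021), and Idi1, Lss, Cyp51, Msmo1, Nsdhl, Dhcr7, Mvk, Fdft1, Ebp and Stard4 fell by 0.40 to 1.31. Srebf2 and Insig1, regulators of the pathway, did not pass. CORT liver L10 was the highest treated liver for Sc5d, Tm7sf2 and Idi1 (74.0 CPM against 11.5 to 33.1). The count of 12 ranged from 7 to 18 as single AS livers were left out, with 18 without L10 and 7 without L7, L9, L16 or L18, and was 9 without the 6 livers that stand apart.

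Bile acid and amino acid genes completed the metabolic lists. Of 19 bile acid genes 4 rose and 1 fell, a share (26.3%) near the background of 27.5%, and 3 fell without L2 and 2 without the livers that stand apart. Slc10a1, the sodium-dependent importer of bile acids, rose from 805 ± 212 to 1461 ± 182 CPM (adjusted p = 0.00011), Baat, which conjugates bile acids, rose by 0.40, and the basolateral exporter Abcc3 fell by 0.49. Cyp7a1, the rate-limiting enzyme of the classical pathway, spread from 12.4 to 189 CPM in vehicle livers and from 54.8 to 116 CPM in CORT livers and did not pass (0.48, adjusted p = 0.673). Of 31 genes of amino acid catabolism and the urea cycle 14 rose and 1 fell. Asl, the argininosuccinate lyase of the urea cycle, was at 561, 510.1, 341, 457 and 346 CPM with vehicle and at 1233, 1248, 798, 1049 and 965 CPM with CORT (log2 change 1.26, SE 0.18, adjusted p = 2.5e-05). Cps1, of the first step of the cycle, rose by 0.43, while Ass1 and Otc did not pass (0.07 and -0.19). Tat, the classical hormone-induced tyrosine aminotransferase, rose by 0.59 (SE 0.20, adjusted p = 0.0333), a call lost under 7 of 19 alternatives, among them those without L2, L8, L10, L11, L18 or L19 (adjusted p of 0.0517 to 0.0945). The serine and threonine dehydratases Sds and Sdsl rose by 1.16 and 1.10, and Agxt, alanine-glyoxylate aminotransferase, fell by 0.92.

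Genes of growth hormone signalling and genes that differ between male and female livers were examined together. Growth hormone, secreted in pulses in males, maintains the male pattern of liver genes through the kinase JAK2 and the factor STAT5B. None of 17 genes of the growth hormone and IGF1 list rose and 4 fell (23.5% altered, against a background of 27.5%): the receptor Ghr, from 550 ± 57.2 to 365 ± 25.2 CPM (adjusted p = 2.2e-05), Stat5b by 0.68, Igfbp3 by 0.55 and Igfbp2, a binding protein of IGF1. Igfbp2 was at 389, 278, 891, 315 and 427 CPM with vehicle and at 74.2, 71.4, 77.1, 69.5 and 73.7 CPM with CORT (log2 change -2.65, SE 0.29, adjusted p = 1.1e-06). Igf1 itself was at 529 to 677 CPM with vehicle and at 531 to 689 CPM with CORT, a log2 difference of -0.00 (SE 0.09). Socs2 missed the threshold at -0.89 (SE 0.60).

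Of 19 male-biased genes none rose and 8 fell, among them Nudt7, a peroxisomal hydrolase of coenzyme A, from 566 ± 122 to 143 ± 30.1 CPM (adjusted p = 2.3e-07), and Hsd3b5, a steroid dehydrogenase, and Cyp2u1, a cytochrome of fatty acids, which fell by 0.92 and 1.08. Of 20 female-biased genes 10 passed the filter on low counts, 8 of those rose and 1 fell. The 10 below the filter had at most 73 counts in any AS liver and are not part of the median of 3.54, which therefore describes only genes that passed the filter. Cyp17a1, a hydroxylase of steroid synthesis, was at 5.20, 7.78, 4.67, 3.63 and 5.43 CPM with vehicle and at 433, 276, 374, 411 and 332 CPM with CORT, a log2 change of 6.09 (SE 0.26). Fmo2 rose by 4.23, Cux2, a transcriptional repressor of female liver, by 2.85, and Abcd2, a peroxisomal transporter, fell by 1.73. Cyp2c40 and Cyp2c69 rose by 4.99 and 5.78, but their sequences are so alike that reads of one may be counted on the other.

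Of 25 genes of drug-metabolizing enzymes and their regulators 10 rose and 2 fell. Sult1e1, which inactivates oestrogens by sulfation, was at 0 to 0.201 CPM in vehicle livers and at 25.6, 15.6, 15.7, 28.4 and 48.4 CPM in CORT livers, and Cyp2b10, the classical target of the receptor CAR, rose from 3.66 ± 1.95 to 142 ± 75.1 CPM (log2 change 5.28, SE 0.47, adjusted p = 1.1e-07). The receptors CAR (Nr1i3) and PXR (Nr1i2) rose by 0.81 and 0.65, and Cyp3a13 by 0.98. Cyp2c55 fell by 2.94 and Cyp1a2 by 0.57, and the abundant enzymes Cyp3a11, Cyp2e1 and Cyp2a5 did not pass.

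Beyond the lists, the protein-coding genes with a mean of at least 1 CPM and the largest non-overlapping rises included E030018B13Rik (6.35), Myom3, a muscle M-band protein (6.02), and Shisa8. Shisa8 had 3 counts over the vehicle livers and 240 over the CORT livers, a ratio of 80 with an exact 95% counting interval of 27.1 to 391. The largest falls under the same limits were those of Cib3, a calcium-binding protein, from 14.3 ± 6.12 to 0.165 ± 0.176 CPM (log2 change -6.40), of Htr1d, a serotonin receptor (-4.18), Gbp10 (-4.15), Dnaic1, a dynein chain (-3.69), Adgrf1, an adhesion receptor (-3.68), and of 5 major urinary protein genes. These pheromone carriers are secreted by male liver. Mup7 was at 1365, 718, 873, 1078 and 1326 CPM with vehicle and at 125, 25.7, 41.9, 155 and 111 CPM with CORT, Mup14 fell by 3.51, Mup16 by 4.04, Mup15 by 5.37 and Mup18 by 6.22 (668 counts over the vehicle livers and 8 over the CORT livers), and all 5 may share reads with near-identical copies.

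**Figure D3:**
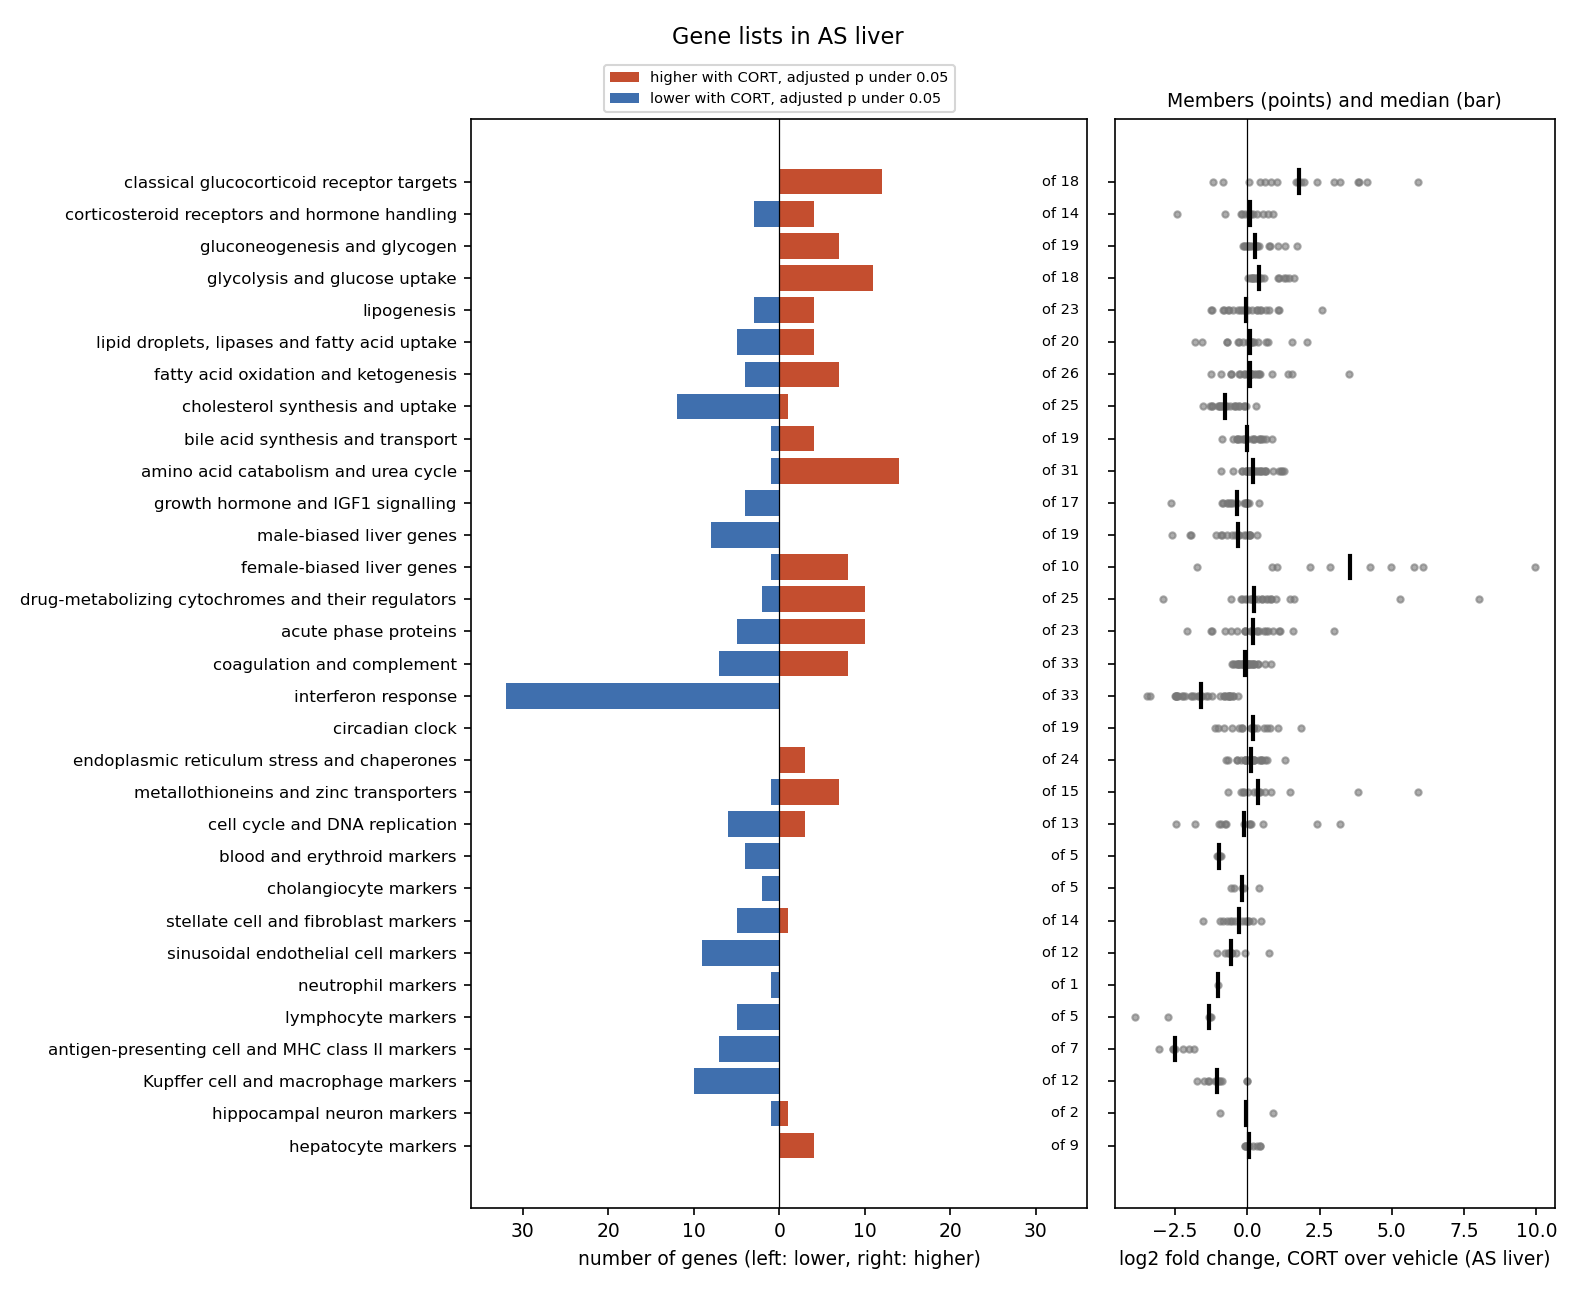
Left, number of genes per list that were higher (red) or lower (blue) with CORT in AS liver at an adjusted p under 0.05, with the number tested at the right edge. Right, log2 change of each tested member (points) and the median of the list (bar); the interferon response has 32 of 33 members lower, and the circadian clock none in either direction.

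Acute phase proteins, which the liver secretes in inflammation, moved in both directions, with 10 of 23 tested members higher and 5 lower (3 lower without L7, without L9 or without the livers that stand apart). Hp, haptoglobin, rose from 1667 ± 114 to 3611 ± 751 CPM (adjusted p = 6.9e-07), Orm3 by 1.59, Lbp, which presents bacterial lipopolysaccharide, by 1.10, and Serpina3m by 0.88. The serum amyloids Saa1, Saa2 and Saa3 fell by 2.08, 1.23 and 1.26, and Hpx, hemopexin, by 0.57. Orm1 was 0.12 higher (adjusted p = 0.336). Coagulation and complement genes also moved both ways, with 8 of 33 higher and 7 lower (4 lower without the livers that stand apart). C3, the central complement component, rose by 0.60 and the clotting factors F9 and F7 by 0.83 and 0.36, while Pros1, the anticoagulant protein S, fell by 0.37 and C4b by 0.32.

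Interferon response genes were lower almost without exception. Of 33 genes induced by interferons, 32 fell and none rose, against a background of 15% lower, with a median log2 change of -1.60, and for 28 of them the groups did not overlap. Ifit3, an antiviral RNA-binding protein, was at 9.48, 7.38, 14.2, 7.36 and 8.44 CPM with vehicle and at 1.78, 1.31, 1.32, 1.77 and 2.30 CPM with CORT (log2 change -2.47, SE 0.19, adjusted p = 1.8e-08). Isg15, a ubiquitin-like modifier, fell from 9.35 ± 3.13 to 2.59 ± 0.541 CPM (adjusted p = 3.9e-07). The transcription factors of the pathway fell to different extents, Irf7 by 1.56, Irf9 by 1.37, Irf1 by 0.50 and Stat2 by 0.32. Mx1 and Tgtp1 fell by 3.46 and 3.36, and were at 0 counts in 1 and 2 of the CORT livers, and the chemokines Cxcl9 and Cxcl10 fell by 2.47 and 2.43. Gbp2 was the exception, at -0.69 (SE 0.30, adjusted p = 0.0925), and was called lower without L10 (adjusted p = 0.0231). Without the 6 livers that stand apart, 28 of the 33 fell.

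**Figure D4:**
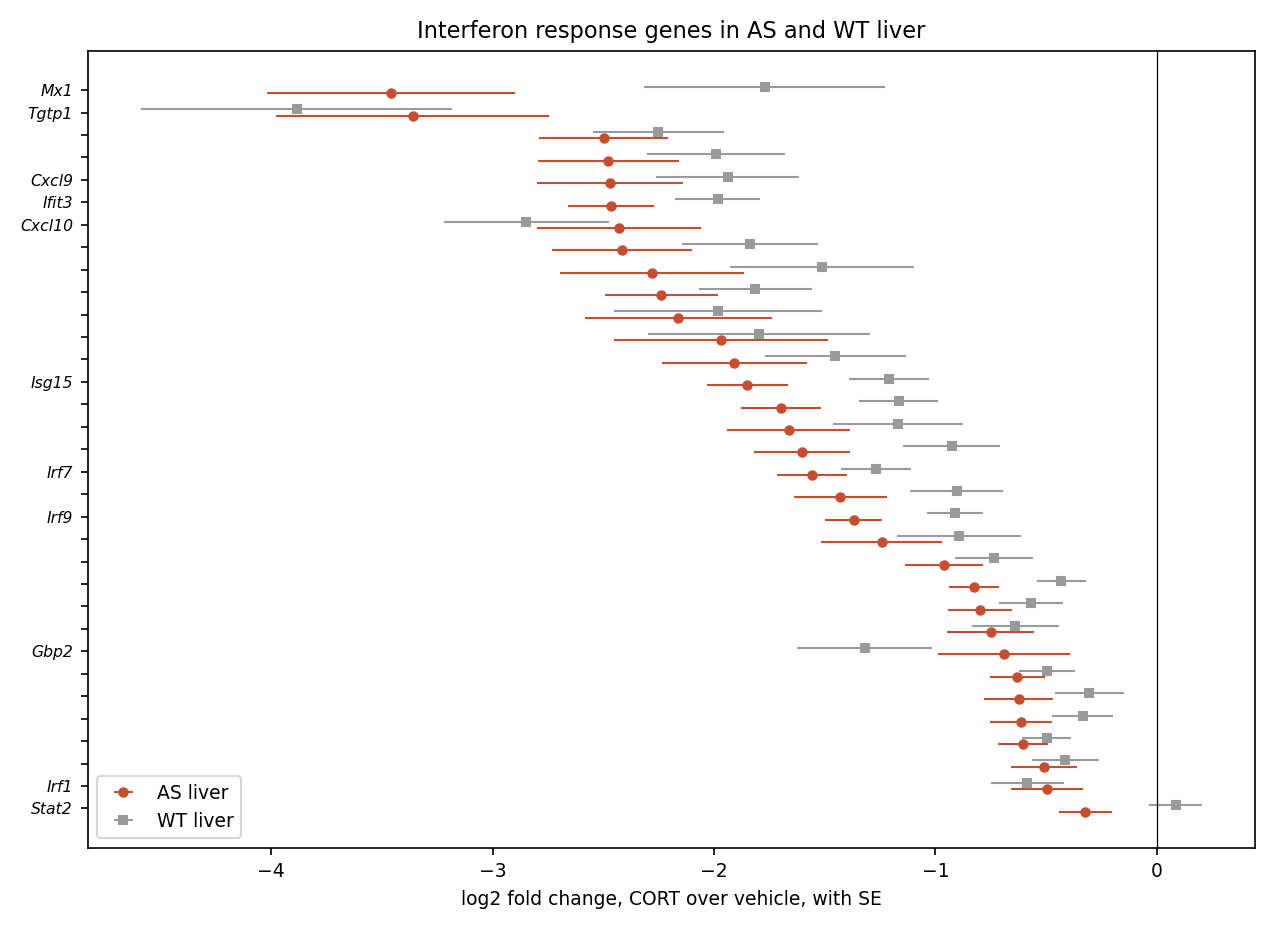
Log2 change with CORT (horizontal axis) and its SE for the 33 interferon response genes, AS livers as red circles and WT livers as grey squares, with names only for genes named in the text. All 33 AS values lie below 0, and 32 of the WT values do.

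Most tested markers of immune and of sinusoidal endothelial cells were lower as well. All 7 tested genes of antigen presentation by MHC class II fell, with a median of -2.51 and no overlap. The other 4 of the 11 members of this list were below the filter. H2-Ab1 was at 36.2, 44.2, 29.4, 36.6 and 36.8 CPM with vehicle and at 5.18, 6.43, 8.04, 4.88 and 6.42 CPM with CORT, and Ciita, the master activator of these genes, fell by 3.04. The summed level of the MHC class II list was 169 to 234 CPM with vehicle and 27.3 to 46.6 CPM with CORT. Of 12 markers of Kupffer cells and macrophages 10 fell (median -1.05), and their sum was 279 to 389 CPM against 118 to 174 CPM. Clec4f, a lectin of Kupffer cells, fell from 66.1 ± 7.58 to 31.9 ± 4.03 CPM, Timd4 by 1.75 and Csf1r by 1.33, and Marco and Cd163, at -0.01 and -0.02, did not pass. The 5 tested lymphocyte markers all fell, among them Cd79a and Ighm of B cells by 3.90 and 2.76, and the sum of the list was 23.1 to 53.1 CPM against 4.32 to 11.6 CPM, while 13 of its 18 members, including Cd3e and Cd8a, were below the filter. Without the livers that stand apart, 3 of the 5 fell. A gene can meet the filter through vehicle livers alone, so that these counts describe only members that met it.

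Of 12 markers of sinusoidal endothelial cells 9 fell (sum 390.0 to 562 CPM against 287 to 389 CPM), including Cdh5, of endothelial junctions, by 1.06, while Stab2 and Lyve1 did not pass. Of 14 markers of stellate cells and fibroblasts 5 fell and 1 rose (sum 405 to 494 CPM against 348 to 432 CPM), with Col3a1 and Lrat lower by 1.54 and 0.94, and 3 fell without the livers that stand apart. Of 5 tested cholangiocyte markers 2 fell, among them Spp1 by 0.55, and 3 did not pass, while without L7 the count that fell was 0 and without the livers that stand apart 1 (median -0.18, sum 89.0 to 118 CPM against 78.3 to 90.1 CPM). The sum of blood and erythroid markers was 244 to 476 CPM with vehicle and 125 to 192 CPM with CORT. Of the 9 hepatocyte markers that could be matched by symbol, 4 rose, Hnf4a by 0.45, Cps1 by 0.43, Alb by 0.32 and Serpinc1 by 0.19, and none fell, while without the livers that stand apart 2 rose. The call of Alb was lost without L2, L14 or L18 (adjusted p of 0.0508 to 0.0713). In bulk liver, fewer cells of a type and less RNA per cell cannot be told apart, and the part of cell composition in the fall of interferon and MHC class II genes was not tested. Neuronal and neutrophil markers were nearly all below the filter (8 of 10 and 9 of 10), and all 9 markers of pancreas and fat were, with a sum of at most 1.15 CPM. Of the neuronal list, Prox1, which hepatocytes also express, rose by 0.88 and Syt1 fell by 0.95, and the sum was 64.6 to 97.6 CPM with vehicle and 108 to 157 CPM with CORT. The tested neutrophil marker, Csf3r, fell by 1.02.

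Cell cycle genes were weakly expressed, with 13 of 26 below the filter, among them Mki67, Top2a and Cdk1. Of the 13 tested, 6 fell and 3 rose. Ccnd1, cyclin D1, was at 16.7, 16.97, 35.6, 14.3 and 14.1 CPM with vehicle and at 3.56, 3.16, 4.37, 3.84 and 2.57 CPM with CORT (log2 change -2.48, SE 0.29, adjusted p = 3.4e-06), and the replicative helicase genes Mcm2 to Mcm6 fell by 0.72 to 1.82. Rrm2, a subunit of ribonucleotide reductase, rose by 2.41, and Tk1, thymidine kinase, by 0.54, a call lost on leaving out any 1 of 8 AS livers (all but L2 and L10, adjusted p of 0.0511 to 0.0939). Cdkn1a, the inhibitor p21, was at 142, 121 and 141 CPM in L10, L16 and L18 but at 8.54 and 14.2 CPM in L7 and L8, within the range of the vehicle livers, and rose by 3.22 (SE 0.91, adjusted p = 0.0119). L7 and L8 are the AS CORT livers that stand apart on PC2.

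None of the 19 clock genes passed the test in AS liver (edgeR), with a median log2 difference of 0.18. None was at an unadjusted p under 0.05 or called by DESeq2, and limma called 5, as did edgeR without L2. Arntl (Bmal1), the positive arm of the clock, was at 0.481 CPM in L2 and at 30.4 to 40.6 CPM in the other AS vehicle livers, and at 5.03 and 4.33 CPM in L7 and L8 against 28.6 to 31.5 CPM in the other AS CORT livers. Without the 6 livers that stand apart, 6 clock genes rose and 1 fell, and Per2 was 1.23 higher (adjusted p = 0.0098), as it was past the threshold without L2 alone (adjusted p = 0.0124). In the list of endoplasmic reticulum stress and chaperones, 3 of 24 rose, a share near the background of 12.6%. They were Atf6, a stress sensor, by 0.47, Herpud1 by 1.30 and Hsph1 by 0.69, whose call was lost without L7, L8, L9, L11, L14, L18 or L19 (adjusted p of 0.0584 to 0.0867). Hspa5 and Ddit3, leading markers of the stress response, had log2 differences of 0.08 and 0.20 and did not pass.

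The AS values were set beside those of the WT littermates, whose vehicle and CORT livers are separate mice. CORT altered 2286 genes (18.6%) in WT liver, and 1675 genes were altered in both genotypes, which is 49.6% of the AS calls and 73.3% of the WT calls. Of these 1675 genes, 1674 moved in the same direction. A further 1705 genes passed the threshold in AS liver but not in WT liver, and 1545 of them had the same sign in WT. The test of the difference between the genotypes, the interaction, called no gene (0.0%, edgeR), with 995 of 12273 genes (8.11%) at an unadjusted p under 0.05 and 9 called by DESeq2. The smallest adjusted p, 0.103, belonged to Tm7sf2 and Fmo2. Fmo2 rose by 4.23 in AS liver and by 1.79 in WT liver (interaction 2.44, SE 0.43). It passed with DESeq2 (adjusted p = 7.1e-05), without the filter (0.020), with 1 surrogate variable (0.00060), without the livers that stand apart (0.0021) and without L2 (0.0260).

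The cholesterol list was set against WT liver in the same way. The log2 change of all 25 genes was lower in AS than in WT liver, against 51.1% of all genes tested, and 20 of the 25 had an unadjusted interaction p under 0.05. The median was -0.78 in AS liver and 0.36 in WT liver, where 1 gene rose and none fell. Tm7sf2, lower by 0.82 in AS liver, was 0.36 higher in WT liver (adjusted p = 0.0823), an interaction of -1.18 (SE 0.20, adjusted p = 0.103). It passed the threshold with DESeq2 (adjusted p = 8.1e-05), without the filter (0.020), with limma (0.0241), with 1 surrogate variable (0.0300) and without L10 (0.0018), so that its call depends on the setting. Genes of glycolysis and glucose uptake, by contrast, had medians of 0.40 in AS liver and 0.41 in WT liver, and 0 of 18 had an unadjusted interaction p under 0.05. The cholesterol list was not the only one to differ in these counts. Of the 31 genes of amino acid catabolism and the urea cycle, 3 had a lower log2 change in AS than in WT liver and 11 had an unadjusted interaction p under 0.05, with 5 higher and 5 lower in WT liver. Of the 23 lipogenesis genes, 18 had a lower log2 change in AS liver and 7 had such a p. For the 19 male-biased genes these counts were 16 and 6. For the 12 markers of Kupffer cells and macrophages they were 12 and 6. For Pck1, of the gluconeogenesis list, the log2 change was 1.72 in AS liver and 0.15 (SE 0.39) in WT liver, a difference that did not pass (interaction adjusted p = 0.494). Its mean was 576 CPM in AS and 1245 CPM in WT vehicle livers, where the WT livers L1 and L4 that stand apart on PC2 were at 2634 and 1583 CPM.

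**Figure D5:**
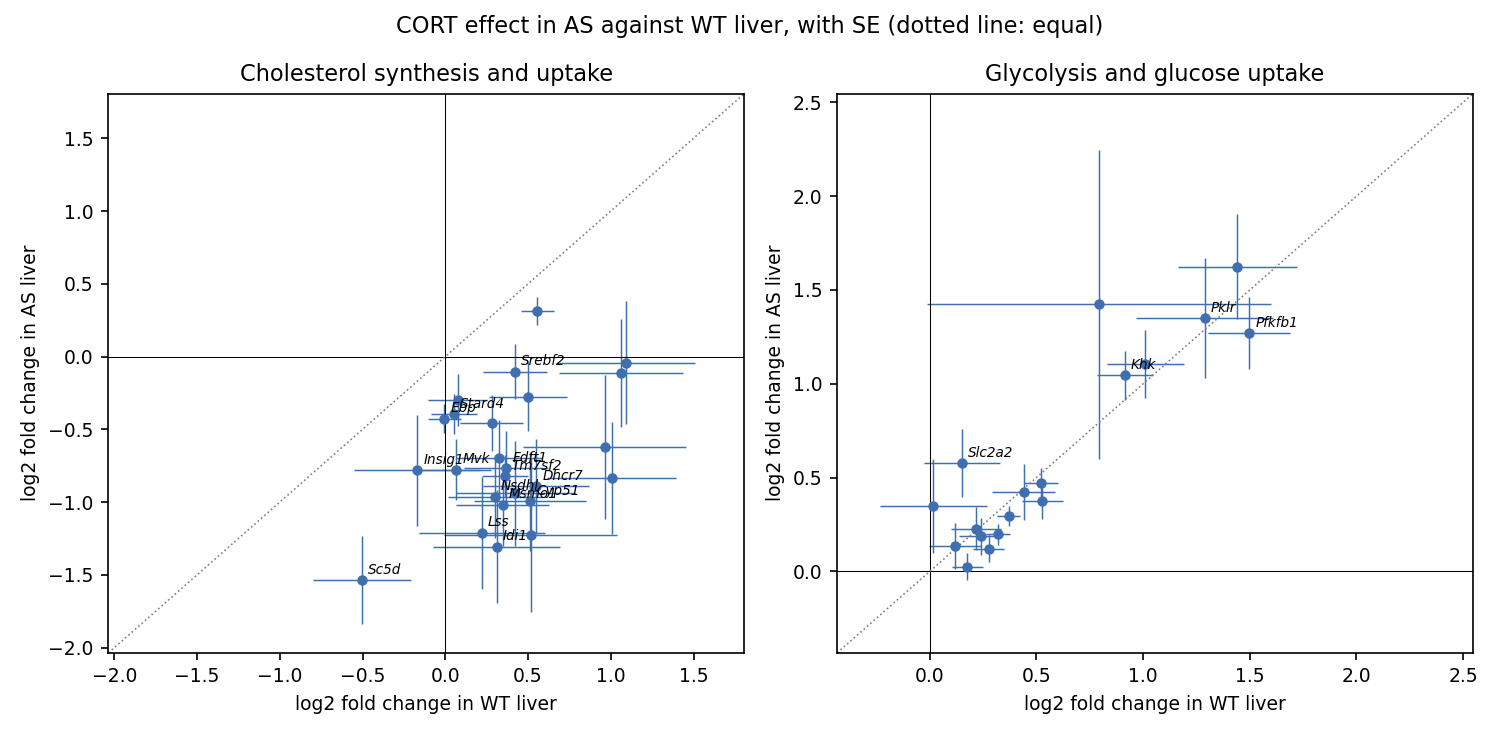
Log2 change with CORT in WT liver (horizontal axis) and in AS liver (vertical axis), each with its SE, for the genes of cholesterol synthesis and uptake (left) and of glycolysis and glucose uptake (right); the dotted line marks equal change, and only genes named in the text are labelled. All 25 cholesterol genes lie below the line, and the 18 glycolysis genes lie on either side of it.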

How the data were processed

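RNA was extracted from snap-frozen liver, and stranded mRNA libraries were sequenced with paired reads. The authors aligned reads with STAR and counted them per gene with HTSeq. The deposited values were raw counts per gene and library, with no normalization. The strand setting and annotation release of the counting were not given in the sources used here. Symbols were taken from GENCODE M 21 (GRCm 38) for 55480 of 55573 gene IDs. Reads assigned to no gene (15.4 to 23.3% of each liver library) were left out of library sizes, and 20 hippocampus columns of the table were not used here.

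Genes with more than 20 normalized counts in at least 3 libraries of a group were kept. The 4 liver groups were fitted together with edgeR 4.0.16 (TMM scaling, quasi-likelihood test, R 4.3.3), with Benjamini-Hochberg adjustment over 12273 genes and a threshold of 0.05. CPM values of tested genes were computed from TMM library sizes. The floor, and members below the filter in marker sums, used library sizes before scaling. DESeq2 1.42.0, limma 3.58.1 with quality weights, sva 3.50.0 and other settings were alternatives, and the code was tested on simulated data. P-values of the main fit weigh the difference between groups against the spread between libraries within groups. That spread was estimated over the 4 groups together, so that WT livers enter it.

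The gene lists and the genes named were chosen with earlier results of these data known. The rule named Ube3a, an anchor set, the altered genes of each list with the smallest p, and the 10 largest non-overlapping rises and falls among protein-coding genes with a mean of at least 1 CPM. Other genes were named after their values were seen, and leaving out the livers that stand apart on PC2 was likewise chosen after seeing the data. Promoters came from RefSeq (GRCm38.p6). Some genes that the rule names are not reported here.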

Additional observations from a re-analysis of the deposited data

Results flagged for a closer look

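Among 264 groups of 5 livers, 32 held a liver far from the other 4 by Dixon's criterion, which chance alone meets in about 5 of 100 groups. Of these values 13 belonged to AS vehicle liver L2, which stands apart on PC2 together with AS CORT livers L7 (4 values) and L8 (1 value). In L2, Per1 was at 51.81 CPM, Per2 at 52.003, Arntl at 0.48106, Serpina6 at 580.07, Cpt1a at 421.55, Cyp7a1 at 188.58 and Slc10a1 at 1179.6 CPM. Also in L2, Slc37a4 was at 283.11 CPM, Lpin1 at 334.58, Fabp1 at 3960.5, Fmo2 at 9.044, Herpud1 at 319.76 and Htr1d at 2.6939 CPM.

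In AS vehicle liver L11, Ccnd1 was at 35.573 CPM, Hnf4a at 516.03, Cyp4a14 at 138.55, Igfbp2 at 890.95, Isg15 at 14.908 and Dnaic1 at 6.4947 CPM. In the other AS vehicle livers, Foxo1 was at 26.609 and Lcn2 at 9.2378 CPM in L9, and Cyp2c69 at 0.48479 CPM in L19. In AS CORT liver L7, Cyp2u1 was at 28.016 CPM, Saa3 at 1.7805, Cib3 at 0.4713 and Mup18 at 0.3142 CPM, and in L8 Orm1 was at 684.84 CPM. In L10, Fkbp5 was at 183.2 and Acss2 at 793.1 CPM. In L18, Nr3c1 was at 70.235 CPM, C3 at 13830.0 and Mttp at 404.51 CPM.

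Reads that fell on more than 1 gene, which entered no comparison, reached 3.853% in an AS CORT liver, and all 5 CORT livers lay above the highest AS vehicle liver (3.40%). The part of this difference in the results was not tested.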

How the results depend on the processing

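No paired analysis was possible because the AS vehicle and AS CORT livers share no replicate numbers. At an adjusted p under 0.01, 869 genes rose and 1136 fell in AS liver and 645 rose and 691 fell in WT liver, and with 1 surrogate variable 1619 rose in WT liver. Under all other alternatives run, these counts stayed within 1.5 times, and the count of altered genes in AS liver was between 2803 and 3748 as single AS livers were left out. Upper-quartile scaling moved the median of all genes to -0.05 and the share of rises among altered genes in AS liver from 45.7% to 36.03% (1195 rose, 2122 fell). The interaction called 9 genes with DESeq2, 2 without the filter, 1 with limma, 2 with 1 surrogate variable, 1 without the livers that stand apart and 0 to 1 as single livers were left out (1 without L2 or L10). The difference of Ube3a from WT, -0.55 with vehicle and -0.48 with CORT, missed an adjusted p of 0.01, and was -0.51 (adjusted p = 0.171) and -0.47 (adjusted p = 0.168) without the livers that stand apart, where fewer samples were fitted. As single livers were left out it was -0.61 to -0.50 with vehicle and -0.51 to -0.45 with CORT. Of 20 such omissions, 4 lost the call with vehicle and 3 that with CORT, and the cause was not tested. Among the 132 named genes, Arntl changed sign to 1.06 with 1 surrogate variable, and the cause was not tested. DESeq2 changed the call of none of the 132, an adjusted p under 0.01 that of 12, and leaving out a single AS liver lost 2 to 6 calls. A count of 3 equals at least 0.144 CPM, which limits among others Sult1e1, Shisa8 and Cyp2c69 in vehicle livers and Mx1, Cib3 and Mup18 in CORT livers.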

Other observations

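Gene families were also examined after the data had been seen. Some of their members, such as Fmo2, Gbp2 and Col3a1, already belong to the lists above. Of 17 tested major urinary protein genes 14 fell and none rose, with a median log2 change of -2.44. The 3 that did not pass were Mup3 (-0.29), Mup20 (0.04) and Mup21 (-0.06), and the members are so alike that reads may be shared among them. Mup18 and Mup10 met the filter on low counts only through vehicle livers. Over the AS CORT livers they had 8 and 57 counts, against 668 and 244 over the AS vehicle livers. The count and median describe only genes that met that filter. All 5 tested flavin monooxygenases rose (median 1.83). Of 11 MHC class I genes of the H2 family 9 fell (median -0.75), and of 9 guanylate-binding proteins 8 fell (median -2.04). Of 20 collagen genes 8 fell and none rose, with a median of -0.40. These families were picked from a larger number examined, against 12.6% of all genes tested that rose and 15% that fell. Several others moved little or both ways. No cytosolic ribosomal protein gene of 79 was altered, and of 224 solute carriers 46 rose and 41 fell. Of 38 proteasome genes 5 rose and 3 fell, and of 17 glutathione S-transferases 3 rose and 4 fell. All 3 tested apolipoprotein L genes fell.

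Several genes with small p-values belonged to no list. Cyp39a1, an oxysterol hydroxylase of bile acid synthesis, rose from 14.4 ± 1.95 to 97.4 ± 14.2 CPM (SD, n = 5 each), and the non-coding 1810053B23Rik rose by 6.58 on the log2 scale. As3mt, which methylates arsenic, rose by 1.49, and Sort1, a sorting receptor of lipoproteins, fell by 2.64. Nrp1, a co-receptor of vascular endothelial growth factor, fell by 2.03. The mitochondrial mt-Atp6 was called higher (2.62, adjusted p = 0.0328) with 53.5 CPM in L7 against 0.682 to 2.94 CPM in the other AS CORT livers and 0.433 to 2.86 CPM in AS vehicle livers.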
